A study of Mus musculus with 15 samples.

Results

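Cyp2a4, Cyp2a5, Cyp2f2, Cbr2, Sult1d1, Aldh3a1 and Cyp2b10 are 7 mouse genes for enzymes that act on foreign chemicals, and their transcripts were followed here in heart RNA. They were selected on their measured signals on these same arrays, with the 4 groups in view, so their group differences are given as a description and carry no test. The accessions printed on the array named 9 probes for the 7 genes, out of 41174 non-control probes. Of 18350 genes named in this way, 14226 had a probe that could be tested, and 6 of the 7 members were among them. Aldh3a1 was the exception, with a signal too close to background on all 15 arrays.

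The hearts came from C57BL/6 mice that were 8 to 10 weeks old at the start. The meth-treated mice were injected into the peritoneum with methamphetamine hydrochloride once a week for 5 months, at a dose that rose by 2 mg each week to 40 mg/kg at 20 weeks, and the controls received PBS (saline buffer) on the same schedule. Heart RNA was labelled and hybridised to Agilent 1-colour arrays, where a probe's brightness reflects the amount of its transcript. There were 4 male meth, 4 male PBS, 4 female meth and 3 female PBS arrays. Male mice came from 2 trials, 2 of each group in each trial. The titles of the samples place every female in trial 1, although another label puts female meth 3 and 4 and female PBS 3 in trial 2. In whole-heart RNA, fewer cells of a type and less RNA per cell cannot be told apart.

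Each signal below is a normalized log2 signal, in which 0 is the 75th percentile of the probes of that array, and 1 unit is a doubling. "Well above background" is the scanner software's own flag. All 14 cardiomyocyte markers were well above background on all 15 arrays. The 75th percentile lay between 307 and 403 intensity units on slides 1 to 3. It was 438 to 589 on slide 4, which held female meth 3 and 4 and female PBS 3, and female values are therefore also given without that slide.

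Cytochromes P450 are haem enzymes of the endoplasmic reticulum that add oxygen to lipophilic drugs, steroids and pollutants, and they take electrons from a shared reductase. Their products pass to other reductases and dehydrogenases and to conjugating enzymes that make them water soluble. The liver is the best known site, but the non-ciliated secretory (club) cells of the mouse airway also hold a large set of these enzymes. Cyp2f2 is the club cell P450 that activates naphthalene. Cyp2a5 hydroxylates coumarin, and Cyp2a4 is its close relative that hydroxylates testosterone. Cyp2b10 is the classical mouse target of the nuclear receptor CAR. Cbr2 is a carbonyl reductase that is abundant in mouse lung, Sult1d1 is a sulfotransferase, and Aldh3a1 is an aldehyde dehydrogenase of epithelia such as the cornea.

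The 4 P450 genes lie on chromosome 7 in the order Cyp2b10, Cyp2a4, Cyp2a5 and Cyp2f2. Cbr2 and Aldh3a1 lie on chromosome 11 and Sult1d1 on chromosome 5. RefSeq promoter windows were at hand for 6 of the 7 genes. The windows of Cyp2a4 and Cyp2a5 are shown because the 2 genes are close relatives. These windows are the 250 bases before the annotated start in GRCm38.p6, on the plus strand, at chr7:26306942-26307191 for Cyp2a4 and chr7:26835089-26835338 for Cyp2a5. They lie outside the transcripts, so their likeness does not show whether a probe binds both transcripts. Capitals mark the bases that differ between the windows.
Cyp2a4: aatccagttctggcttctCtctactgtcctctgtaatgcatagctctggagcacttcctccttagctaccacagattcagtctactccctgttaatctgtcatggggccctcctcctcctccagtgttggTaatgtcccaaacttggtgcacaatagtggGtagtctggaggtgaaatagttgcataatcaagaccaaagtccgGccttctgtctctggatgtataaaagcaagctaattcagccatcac
Cyp2a5: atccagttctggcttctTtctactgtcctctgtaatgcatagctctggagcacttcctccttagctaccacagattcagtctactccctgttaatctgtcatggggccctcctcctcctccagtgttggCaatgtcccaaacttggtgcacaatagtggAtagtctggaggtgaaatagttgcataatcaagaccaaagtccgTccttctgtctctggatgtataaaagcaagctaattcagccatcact

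Shifted by 1 base, the windows were identical at 245 of 249 bases (98.4%). Among the other pairs of members, the best match without gaps was 34.5%, between Cbr2 and Cyp2b10. Both windows hold a TATA box (TATAAA), 28 and 29 bases before the start, which occurs on either strand in 12.4% of 32851 RefSeq windows of this length. Both also hold TTGCATAA, a match to the C/EBP motif TTGCNNAA, which is found in 9.56% of windows.

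The windows of Cyp2f2 and Cyp2b10 are shown because these P450 genes lie near the pair but gave different signals in hearts. They lie on the plus strand at chr7:27119705-27119954 for Cyp2f2 and chr7:25897408-25897657 for Cyp2b10. Capitals mark the motifs found, of which Cyp2f2 has none.
Cyp2f2: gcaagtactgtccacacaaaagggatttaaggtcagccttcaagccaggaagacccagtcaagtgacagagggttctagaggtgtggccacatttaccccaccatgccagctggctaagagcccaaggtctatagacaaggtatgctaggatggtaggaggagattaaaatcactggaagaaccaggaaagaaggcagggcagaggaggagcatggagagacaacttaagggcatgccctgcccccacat
Cyp2b10: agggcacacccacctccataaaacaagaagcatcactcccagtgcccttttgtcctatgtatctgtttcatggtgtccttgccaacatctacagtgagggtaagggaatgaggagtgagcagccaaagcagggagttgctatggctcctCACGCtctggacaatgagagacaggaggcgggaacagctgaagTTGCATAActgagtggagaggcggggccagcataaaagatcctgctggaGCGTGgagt

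The Cyp2b10 window also held TTGCATAA, and it held the AhR core GCGTG on both strands. GCGTG occurs in 28.2% of windows and was found once in that of Sult1d1. The search also covered the forkhead motifs TGTTTAC (3.17% of windows) and TGTTTGC (4.30%), the antioxidant response core TGACNNNGC (10.2%) and the C/EBP palindrome TTGCGCAA (0.164%), all on both strands, and none of these was found in a member's window. Every match to TTGCGCAA is also a match to TTGCNNAA. The windows of Cyp2f2 and Cbr2 held none of the 7 motifs, which says only that these letters are not in this stretch.

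Cyp2a5 was high in male meth hearts and not measurable in male controls. The Cyp2a5 probe (A_52_P246252) gave 2.86, 4.66, 1.72 and 3.16 in male meth hearts and was well above background on all 4 arrays. In male PBS hearts it gave -6.42, -7.22, -7.32 and -5.25 and was well above background on none. The male groups were far apart. The fitted log2 fold change was 9.65 (standard error 0.67). Because the control signal is only a bound, Cyp2a5 is stated as at least 422-fold higher in male meth hearts.

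In female hearts Cyp2a5 was measurable with and without meth. It gave -1.36, -2.86, -3.05 and -1.88 in female meth hearts and -3.91, -1.84 and -3.10 in female PBS hearts, and was well above background on all 7 arrays. The female groups overlapped. The log2 fold change was 0.66 (standard error 0.72), and 0.77 without slide 4. The order of the group means was male meth, female meth, female PBS and male PBS, in which the neighbours female meth and female PBS did not differ beyond their spread. All 3 female PBS arrays lay above the 4 male PBS arrays, at least 6.37-fold. This gap between controls was small with normexp background correction, which lifts low signals (log2 difference -0.40). Hepatocyte markers moved with it: 4 of 14 tested were lower in male than in female PBS hearts and none higher. They were Alb (at least 12.3-fold), Ambp (at least 5.26-fold), Apoh (at least 3.68-fold) and Fgb (at least 3.07-fold). Without slide 4 there was 1 such call, and with normexp 0. The alveolar genes Sftpc (at least 16.5-fold) and Sftpd (at least 5.02-fold) were lower there too. Without slide 4 there was 1 alveolar call and with normexp 0, and fewer were called in 16 of 27 alternatives. The part of the hepatocyte and alveolar genes in the Cyp2a5 gap was not tested.

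Cyp2a4 was measured by 3 probes, which followed the Cyp2a5 probe closely. The brightest (A_52_P246255) gave 2.47, 4.14, 1.30 and 2.71 in male meth hearts, and -5.54, -5.75, -6.41 and -6.82 in male PBS hearts, with no male PBS array well above background. It gave -2.08, -3.49, -3.57 and -2.14 in female meth hearts and -4.29, -2.82 and -4.00 in female PBS hearts. The male groups did not overlap, and the female groups did. Its log2 fold change was 8.79 (standard error 0.49) in males, at least 281-fold, and 0.89 (standard error 0.53) in females.

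The second Cyp2a4 probe (A_51_P377154) gave a male log2 fold change of 8.77 (standard error 0.55), at least 157-fold. The third (A_52_P9703) gave 6.78 (standard error 0.63), at least 56.9-fold, and was the dimmest. In females they gave 0.61 (standard error 0.59) and 1.63 (standard error 0.68), with overlapping groups. The probes disagreed on female PBS hearts, where the brightest was well above background on 3 of 3 arrays, the second on 2 and the third on 1. Against female PBS hearts, male PBS hearts were lower by at least 3.42-fold with the brightest probe and at least 2.74-fold with the second, whereas with the third the groups overlapped. With normexp background correction the brightest probe gave a log2 difference of 0.11 between these controls, so its direction turned.

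The probes of Cyp2a4 and Cyp2a5 cannot be taken as independent measurements. Over the 15 arrays, which share their hybridisations, the Pearson correlation of the Cyp2a5 probe with the Cyp2a4 probes was 0.98, 0.99 and 0.92. The probe of another gene, Cyp2f2, correlated about as closely with the same Cyp2a4 probes, at 0.97, 0.96 and 0.98. These correlations therefore do not show whether a probe binds both transcripts. Over the 4 male meth arrays, the difference between the Cyp2a5 probe and the second Cyp2a4 probe had an SD of 0.039, against an SD of 1.21 for the Cyp2a5 signal itself. No probe sequences were at hand, so how much each probe binds the other transcript was not tested, and the signal is best read as that of the Cyp2a4 and Cyp2a5 pair.

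Cyp2f2 was measurable in all 15 hearts. Its probe (A_51_P453909) gave 2.80, 4.57, 1.80 and 2.92 in male meth hearts and -1.72, -2.09, -2.23 and -1.94 in male PBS hearts. Female meth hearts gave -0.41, -1.61, -1.58 and -0.25, and female PBS hearts -1.57, -1.11 and -1.67. The male groups were far apart, and the female groups overlapped. The Cyp2f2 log2 fold change was 5.02 (standard error 0.44) in males, or 32.4-fold, and 0.49 (standard error 0.48) in females. The 4 male PBS signals all lay below the 3 female PBS signals, with means of -1.99 ± 0.22 (SD, n = 4) and -1.45 ± 0.30 (SD, n = 3), although the fitted difference with the trial term was -0.16 (standard error 0.53).

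Cyp2b10 had another pattern of signals than the other P450 genes: its groups were separated in females and overlapped in males. The probe (A_52_P472486) was well above background on all 15 arrays. It gave -2.94, -3.09, -2.99 and -2.82 in female meth hearts and -4.38, -4.71 and -4.28 in female PBS hearts. Male meth hearts gave -2.82, -1.95, -3.64 and -2.47, and male PBS hearts -3.27, -3.68, -3.20 and -3.31. The female meth arrays were tightly grouped, with an SD of 0.11 (n = 4), and the trial 2 male meth mouse at -3.64 lay within the male controls.

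The log2 fold change of Cyp2b10 was 1.5 (standard error 0.29) in females, or 2.82-fold, and 0.65 (standard error 0.26) in males. Without slide 4 the female value was 1.53, and with normexp background correction it was 0.59. The female PBS hearts were the lowest of the 4 groups, and none of their 3 arrays overlapped with the 4 male PBS arrays. The difference between the male and female responses was -0.85 (standard error 0.39).

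Among the reductase, dehydrogenase and conjugating members, Cbr2 was readily measured in every heart. Its probe (A_51_P238425) gave 4.68, 5.72, 3.89 and 4.60 in male meth hearts and 3.84, 3.81, 3.42 and 3.47 in male PBS hearts. In females it gave 4.23, 3.84, 3.88 and 4.04 after meth, and 3.87, 4.03 and 3.80 after PBS. The male groups did not overlap, although the lowest male meth signal (3.89) was close to the highest male PBS signal (3.84). Within a trial the gap was wider. The log2 fold change was 1.09 (standard error 0.21) in males, or 2.13-fold, and 0.10 (standard error 0.23) in females.

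Sult1d1 was seen only in male meth hearts. Its probe (A_51_P481721) gave -3.55, -2.02, -5.08 and -3.35 there, and was well above background on 3 of the 4 arrays, all but male meth trial 2 replicate 1. It was well above background on none of the 4 male PBS, 4 female meth and 3 female PBS arrays, where it lay between -7.90 and -7.02. All 4 male meth signals lay above all others. The male log2 fold change was 3.60 (standard error 0.42), or at least 4.46-fold, and no fold is given for females, since both groups were below background.

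Aldh3a1 had no measurable transcript. Its probe (A_51_P310594) was well above background on 0 of 15 arrays, with signals between -7.59 and -4.66. The highest, -4.66, was on male meth trial 2 replicate 2. The groups overlapped, and no fold is given.

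**Figure D1:**
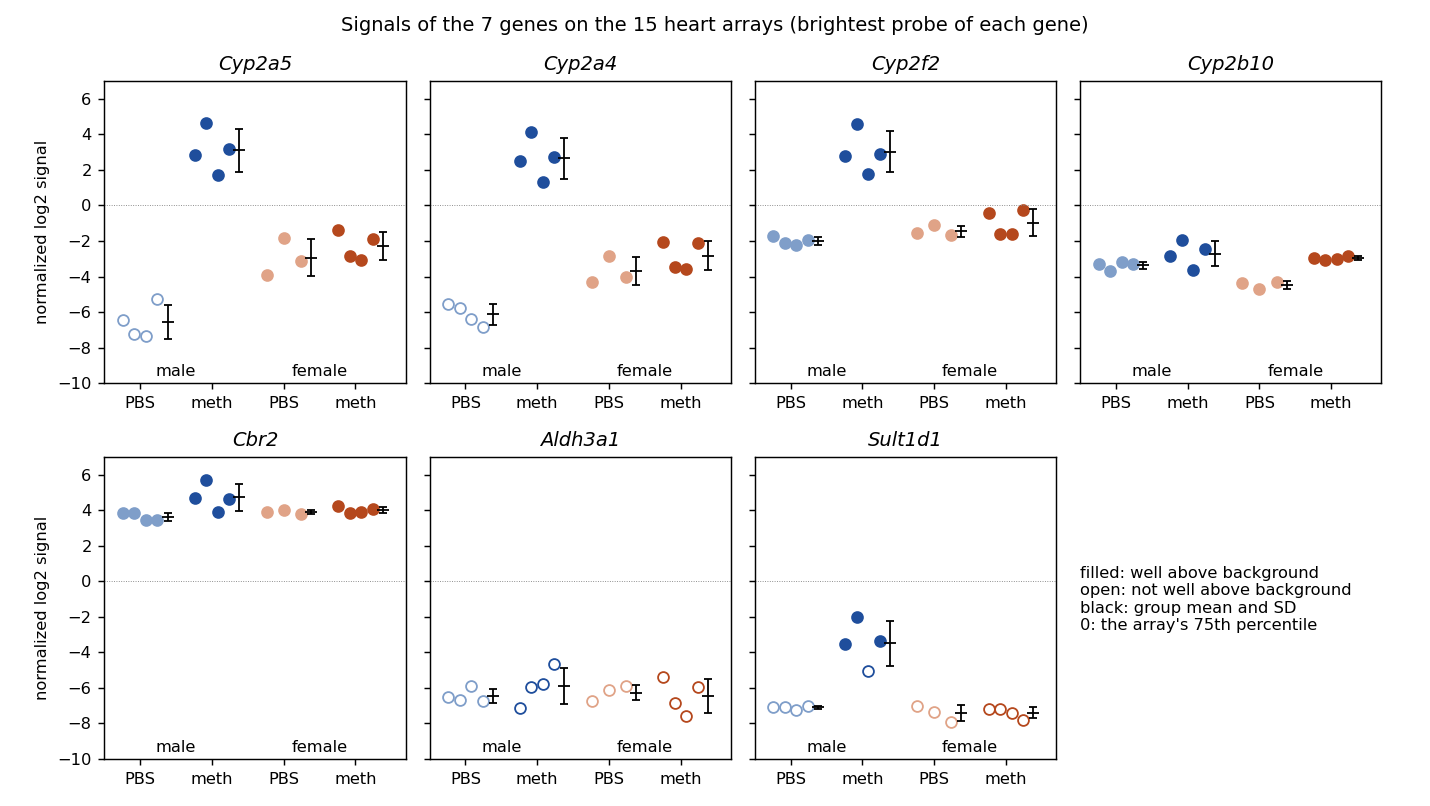
Normalized log2 signal (vertical axis) of the brightest probe of each gene on the 15 heart arrays, 1 point an array, with the group mean and SD in black; open points were not well above background. Cyp2a5, Cyp2a4, Cyp2f2, Cbr2 and Sult1d1 are higher in male meth than in male PBS hearts without overlap, Cyp2b10 is separated in females only, and Aldh3a1 is open on all arrays.

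The comparisons were fitted over all tested probes with limma, with 0.05 as the threshold of the adjusted p (Benjamini-Hochberg), and genes were counted by their brightest tested probe. Among all 14226 genes, 1.04% were called higher and 0.295% lower in male meth hearts. Of the 6 members tested, 5 were called higher and none lower: Cyp2a4, Cyp2a5, Cyp2f2, Cbr2 and Sult1d1. In females 0.239% of genes were called higher and 0.204% lower, and among the members Cyp2b10 alone was called, as higher. Sult1d1 could be tested only because it was well above background on 3 male meth arrays. Nothing is read from these counts, because the members were selected on the same arrays. The median log2 fold change over the 6 members was 4.31 in males, or 3.59 with Cyp2a5, Cyp2a4 and Sult1d1 at their lower bounds, and 0.58 in females. Over all genes it was -0.02 and 0.03.

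Both the calls and the sizes moved with the processing. With a replicate block, which pairs meth and PBS arrays of the same number, 4 members were called in males, without Cbr2, and 0 in females. Without slide 4, the same 4 genes and 0 genes were called. Normexp background correction made the male differences smaller, at 5.63 for Cyp2a5, 4.79 for Cyp2a4 and 0.75 for Sult1d1, and left 3 members called, the P450 genes Cyp2a4, Cyp2a5 and Cyp2f2.

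The male and female responses were also set against each other. For the male minus the female log2 fold change, 0.127% of all genes were called higher and 0.0281% lower. Where all 4 groups were measurable, the difference was 4.53 (standard error 0.65) for Cyp2f2 and 0.99 (standard error 0.32) for Cbr2. For Cyp2a5 and Cyp2a4 the fitted differences, 8.99 and 7.90, rest on male PBS signals below background and are no exact sizes. They were 5.25 and 4.27 with normexp. No such difference is given for Sult1d1, since neither female group was above background. Cyp2a4, Cyp2a5 and Cyp2f2 were called. With the replicate block and without slide 4 the count was 0. The fitted values without slide 4 were 8.89 for Cyp2a5, 8.01 for Cyp2a4 and 4.68 for Cyp2f2, so the direction was the same. For male against female PBS hearts, 0.232% of genes were called higher and 0.316% lower in males, and 0 of the 6 members were called. In that comparison Cyp2a5 was called in 2 of 26 alternatives, without a trial term and with the trial taken from the other label.

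**Figure D2:**
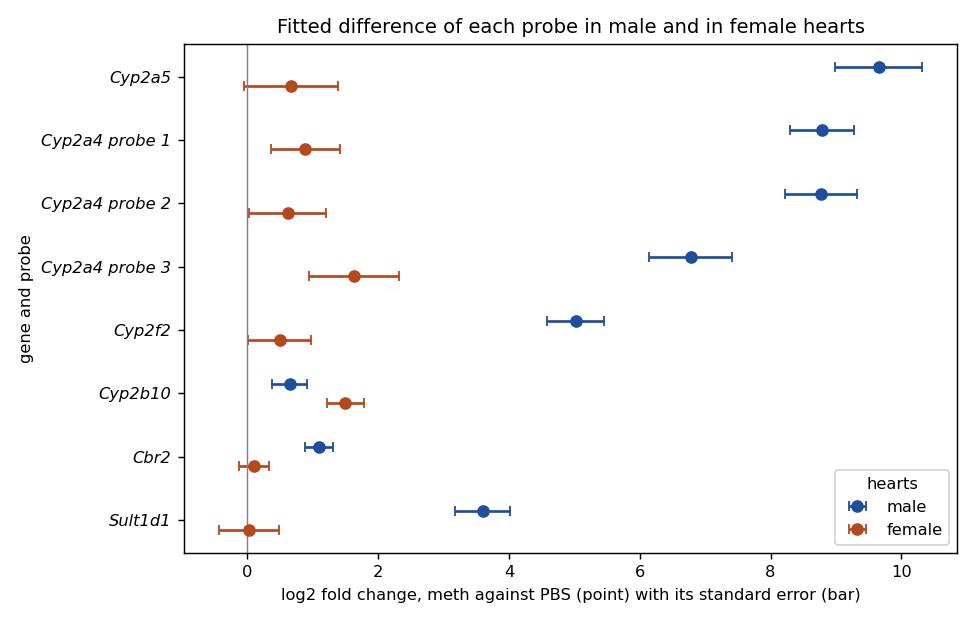
Fitted log2 fold change of meth against PBS (horizontal axis) for each tested probe, with bars of 1 standard error, in male (blue) and female (orange) hearts. The male values of the Cyp2a4 and Cyp2a5 probes lie between 6.78 and 9.65 and their female values between 0.61 and 1.63, and Cyp2b10 is the gene whose female value is the larger. Male PBS signals of Cyp2a5, Cyp2a4 and Sult1d1 were below background, so their male points are fitted values and no exact sizes.

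The differences were also taken between arrays of 1 slide. On slides 1, 2 and 3, male meth minus male PBS was 9.28, 11.88 and 8.73 for Cyp2a5. It was 4.52, 6.66 and 4.44 for Cyp2f2, and 0.84, 1.91 and 0.81 for Cbr2. The sign was the same on every slide. Slide 2, which held male meth trial 1 replicate 2, gave the largest value for Cyp2f2, Cbr2 and Cyp2b10, whose controls were measurable. The Cyp2a5 and Sult1d1 values, here and by trial, rest on controls below background and are no exact sizes. Slide 3 held the trial 2 males, so the same values compare the trials. In the fit by trial, Cyp2a5 had a log2 fold change of 10.58 in trial 1 and 8.73 in trial 2, Sult1d1 4.29 and 2.91, and Cbr2 1.37 and 0.81.

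In females the slides did not agree in sign. On slides 1, 2 and 4, female meth minus female PBS was 2.55, -1.01 and 0.63 for Cyp2a5 and 1.17, -0.50 and 0.76 for Cyp2f2. For Cyp2b10 it was 1.44, 1.62 and 1.38. Cyp2b10 was thus the member with an even difference on all 3 female slides, while that of Cyp2a5 and Cyp2f2 was spread on both sides of 0. Its male differences were less even, at 0.45, 1.73 and 0.21.

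**Figure D3:**
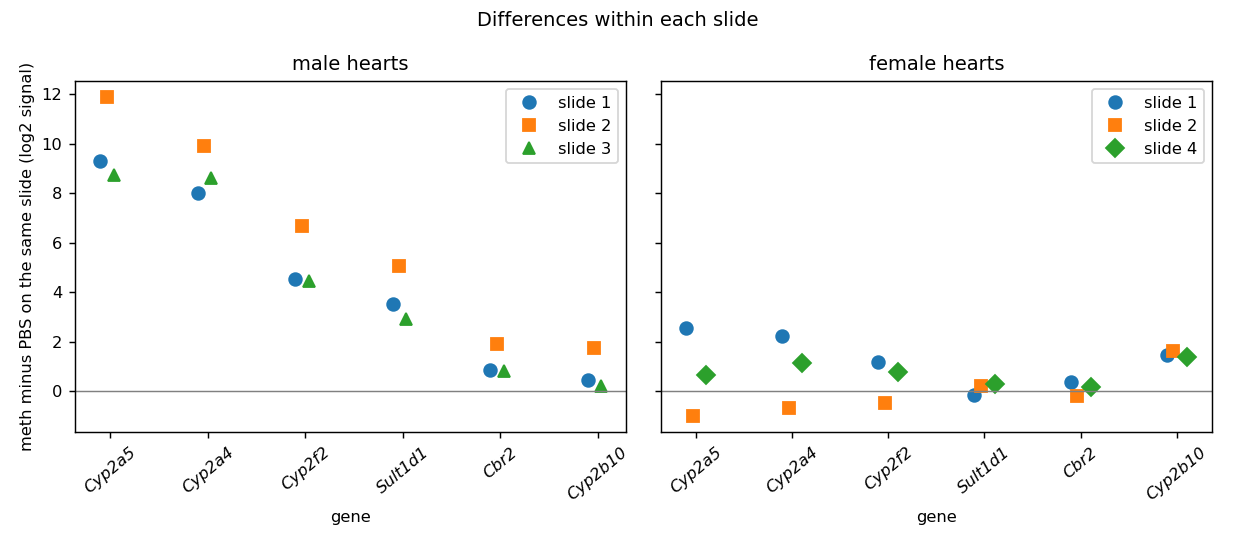
Meth minus PBS signal on the same slide (vertical axis, log2) for the 6 tested genes, in males (slides 1, 2 and 3) and females (slides 1, 2 and 4). Every male value is above 0 and the highest of each gene is on slide 2, whereas the female values of Cyp2a5, Cyp2a4 and Cyp2f2 lie on both sides of 0 and those of Cyp2b10 lie together between 1.38 and 1.62.

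The members varied together from mouse to mouse within the male meth group. Male meth trial 1 replicate 2 had the highest signal of the 4 for all 6 tested genes. Trial 2 replicate 1 had the lowest. The order of the 4 arrays was the same for Cyp2a5, Cyp2a4, Cyp2f2, Sult1d1 and Cyp2b10, and differed for Cbr2. Among 14204 genes with a signal on all arrays, 5.32% had this order and 34.7% were highest on trial 1 replicate 2. The SD over the 4 male meth arrays was 1.21 for Cyp2a5, 1.16 for Cyp2a4, 1.15 for Cyp2f2 and 1.25 for Sult1d1, against 0.75 for Cbr2 and 0.71 for Cyp2b10.

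The P450 genes that lie between Cyp2b10 and Cyp2f2 on chromosome 7 were examined next. The RefSeq order, with names only since its build differs from that of the array design, gives 11 protein-coding P450 genes there, the 4 members included. Cyp2a22, the neighbour of Cyp2a5, was well above background on 4 of 4 male meth arrays and on no other. It could be tested only through that group, so its call is a description. It was at least 9.53-fold higher in male meth than in male PBS hearts (log2 fold change 3.96, adjusted p = 0.0071), and the adjusted p ranged from 0.0019 to 0.67 over 28 alternatives. Cyp2g1, an olfactory P450, and Cyp2a12, a liver P450, were well above background on 0 of 15 arrays although they lie in the same stretch. Cyp2b23 was so on 1 array.

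The Cyp2b genes beside Cyp2b10, chosen after their values were seen, had female differences of similar size. In females Cyp2b13 differed by 1.69 ± 0.36 (log2 fold change and standard error, adjusted p = 0.056), and Cyp2b9 by 1.51 ± 0.37 (adjusted p = 0.091). Neither passed the threshold. In males they had 0.67 (adjusted p = 0.43) and 0.48 (adjusted p = 0.61). These genes are close relatives of Cyp2b10, and whether their probes bind each other's transcripts was not tested. Cyp2b19, another Cyp2b gene of this stretch, had 0.11 in males and -0.13 in females.

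The lists of other drug-metabolism enzymes had smaller median changes in males than the members, which were selected on their signals. Single genes such as Cyp2a22, Cyp4a12a and Cyp2e1 had larger fitted changes in males than the members Cbr2 and Cyp2b10. Of 21 other family 2 P450 genes tested, 2 passed the threshold in males, both higher, and their median log2 fold change was 0.13. They were Cyp2a22 and Cyp2e1, the ethanol-inducible P450 (log2 fold change 1.92, adjusted p = 0.019). Of 15 other xenobiotic P450 genes, Cyp4a12a (2.24, adjusted p = 0.038) and Cyp3a13 (1.44, adjusted p = 0.019) rose, with a list median of 0.14. Neither was well above background on any male PBS array, so they rose at least 3.47-fold and 1.40-fold. With the replicate block 0 of the 21 and 1 of the 15 were called, and with normexp background correction 0 of either.

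Of 54 other phase 1 oxidases, reductases and hydrolases tested, 7 rose in males and none fell, with a list median of 0.15. Akr1c18, a steroid reductase, was at least 2.38-fold higher (adjusted p = 0.049), a call lost in 24 of 28 alternatives. Other rises, on the log2 scale, were those of Fmo2 (0.80), the alcohol dehydrogenase Adh1 (0.77) and the retinaldehyde dehydrogenase Aldh1a1 (0.75). With the replicate block 4 of the 54 were called, with normexp 2.

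Of 40 phase 2 conjugating enzymes tested, 2 rose in males, the glutathione transferases Gstt2 (log2 fold change 0.67, adjusted p = 0.023) and Gstt3 (0.31, adjusted p = 0.049), with a list median of 0.03. The replicate block left 1 of them called, and normexp 0. In females 0 genes of these 4 lists passed the threshold in either direction. Between PBS hearts the oestrogen sulfotransferase Sult1e1, a relative of Sult1d1, was at least 8.51-fold higher in males (adjusted p = 1.2e-04). Its signals were above background on all 8 male arrays and on none of the 7 female arrays, a pattern Sult1d1 did not share. Inmt (log2 difference 1.31, adjusted p = 0.032) and Sult5a1 (0.86, adjusted p = 0.037) were also higher in male PBS hearts, calls lost in 13 and 14 of 27 alternatives. Cyp3a41a and Ces1c, which are known from liver, were lower in male PBS hearts by at least 4.07-fold (adjusted p = 0.0096) and 6.62-fold (adjusted p = 0.0024), calls lost in 6 and 1 of 26 alternatives. With normexp none of these 5 calls was made.

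The receptors that control such enzymes showed no difference past the threshold. Of 17 receptors and regulators tested, limma called 0 in males and 0 in females. The CAR transcript Nr1i3 had a mean of -3.38 in male meth, -3.20 in male PBS, -3.16 in female meth and -2.45 in female PBS hearts. Receptor activity was not measured, and a part of CAR in the Cyp2b10 difference was not tested. The PXR transcript Nr1i2 was well above background on 0 of 15 arrays, as were Foxa3 and Nkx2-1. The aryl hydrocarbon receptor Ahr differed by 0.13 in males and 0.05 in females. Its partner Arnt differed by 0.00 and 0.01, and its repressor Ahrr by -0.01 and -0.20.

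Nfe2l2, the regulator of the antioxidant response, differed by 0.09 in males and 0.34 in females (adjusted p = 0.052), and its inhibitor Keap1 by -0.13 and 0.02. The C/EBP factors had 0.52 (Cebpa) and 0.97 (Cebpb) in males and 0.60 and 0.56 in females. Foxa1 was well above background on 3 male meth arrays and on no other array (log2 fold change 1.63, adjusted p = 0.22). The remaining regulators, Rxra, Rxrb, Rxrg, Ppara, Nr1h4, Hnf4a, Nfia and Nr3c1, lay between -0.29 and 0.33 in males.

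**Figure D4:**
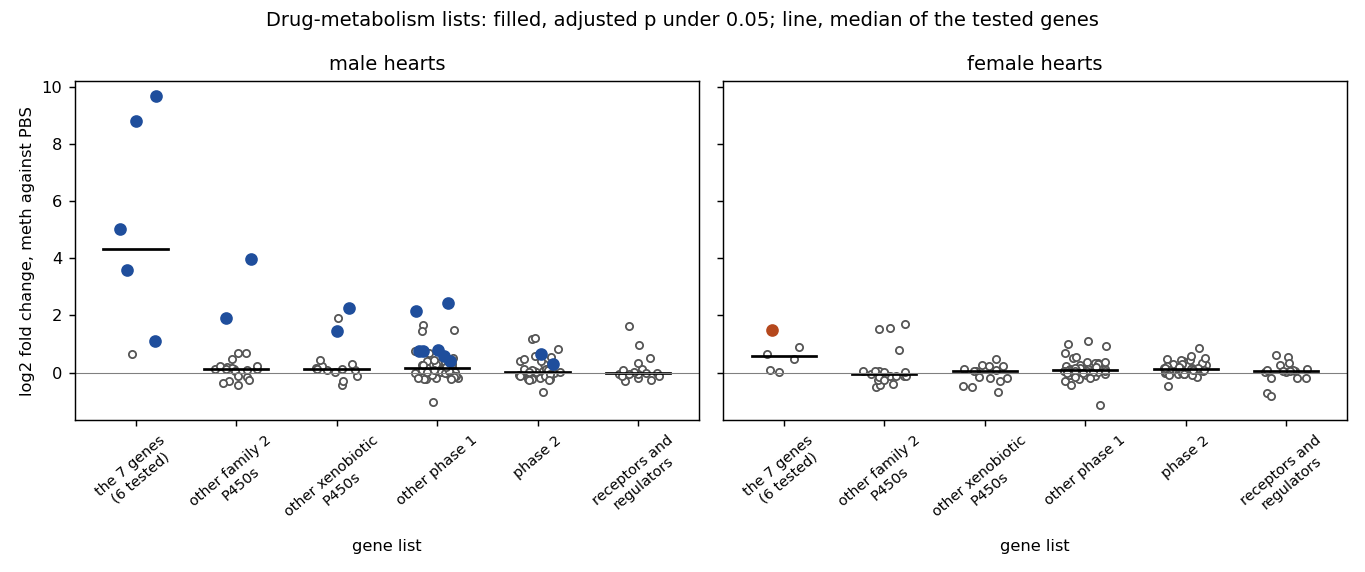
Log2 fold change of meth against PBS (vertical axis) of each tested gene of the members and of 5 drug-metabolism lists, in males and females; filled points have an adjusted p under 0.05 and the black line is the median. In males the median of the members is 4.31 and those of the other lists lie between -0.01 and 0.15.

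Markers of the cells that such enzymes are known from moved with the members. The marker lists were written with earlier results of these data known, so their counts are a description. Of 18 secretory airway markers tested, 13 rose in male meth hearts and none fell, against 1.04% higher and 0.295% lower among all genes. Their median log2 fold change was 3.50, or 3.01 with the 8 genes below background in controls at their lower bounds. The first of the list, Scgb1a1 (the club cell secretoglobin), rose by a fitted 9.29 on the log2 scale (adjusted p = 2.9e-06, 6.22 with normexp), with 2 of 4 male PBS arrays well above background, and the largest was that of Bpifa1, a secreted airway protein, at least 1430-fold. The replicate block left 11 called, normexp 8. The summed signal of the 18 markers, in units of an array's 75th percentile, was 43.6 to 197 on male meth arrays, 5.41 to 9.73 on male PBS, 4.60 to 10.4 on female meth and 3.90 to 6.49 on female PBS arrays. Among these markers Spdef was well above background on no array.

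On single arrays the secretory sum and most members moved together in male meth hearts, and only in part in the other groups. The male meth arrays had log2 sums of 5.96, 7.62, 5.45 and 6.18, in the order of the Cyp2a5 values above. Their highest and lowest were the highest and lowest for Cyp2a5 as well. Among females, female meth 1 and 4 had 3.38 and 3.37, against 1.96 to 2.70 on the other 5 arrays, and they also had the highest Cyp2f2 signals. For Cyp2a5, however, female PBS 2 (-1.84) lay just above female meth 4 (-1.88). Male PBS trial 1 replicate 1 had a sum of 3.28, yet its Cyp2a5 signal of -6.42 was not well above background. In the controls the sums of the sexes overlapped, yet Cyp2a5 was well above background in the female controls alone. Scgb1a1 was also lower in male controls, with means of -5.35 in male PBS (2 of 4 arrays well above background) and 0.56 in female PBS hearts (adjusted p = 0.0019, 0.00063 to 0.071 over 26 alternatives). The fitted log2 difference was -5.25, and -2.72 with normexp. In females Scgb1a1 differed by -1.48 between meth and PBS (adjusted p = 0.31). The part of airway RNA in the members' difference was not tested.

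**Figure D5:**
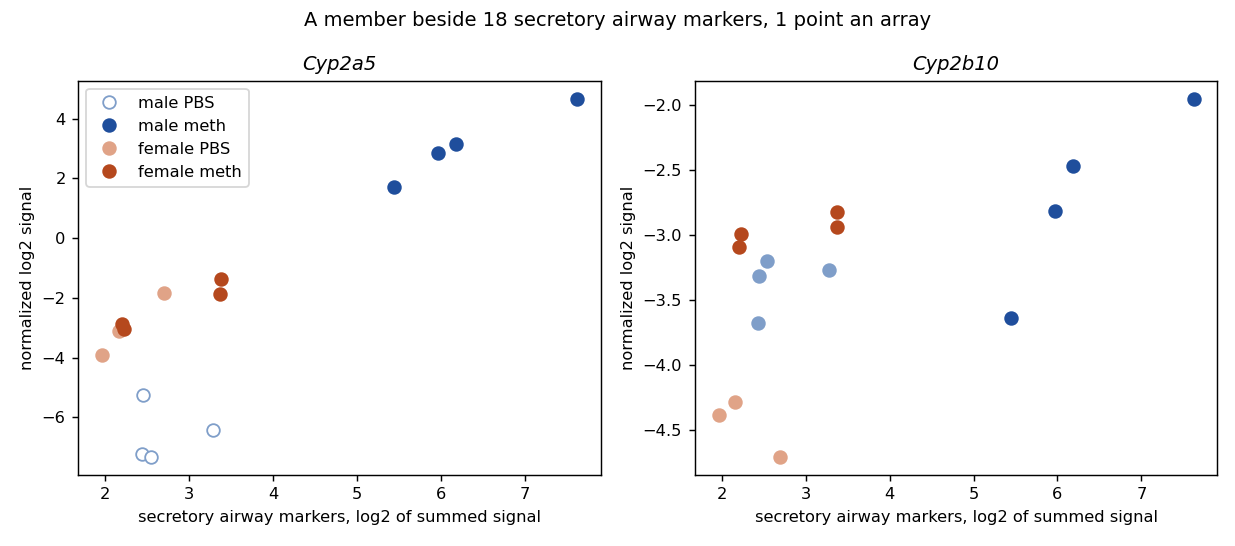
Normalized log2 signal of Cyp2a5 (left) and Cyp2b10 (right) against the log2 of the summed signal of 18 secretory airway markers, 1 point an array, coloured by group; open points were not well above background. The 4 male meth arrays lie at secretory sums of 5.45 to 7.62 and have the highest Cyp2a5 signals. The Cyp2b10 signals of female meth and female PBS hearts are apart. Their secretory sums overlap in part, at 2.20 to 3.38 with meth and 1.96 to 2.70 with PBS.

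In the other epithelial lists only some genes rose. Of 11 ciliated markers, 5 rose in male meth hearts, among them Foxj1, the regulator of motile cilia, at least 4.2-fold, and Ccdc153, at least 15.7-fold (adjusted p = 0.0019). Of 9 alveolar markers 3 rose, including the surfactant protein gene Sftpa1 (at least 2.77-fold, adjusted p = 0.026) and Aqp5 (at least 12.8-fold, adjusted p = 0.0019), while the surfactant gene Sftpb was well above background on no array. Of 12 general epithelial markers 4 rose, with Krt15 at least 11.5-fold higher. The replicate block left 4, 2 and 3 of these called, and normexp 0, 0 and 1.

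In females 2 secretory markers rose, Bpifa1 (at least 20.8-fold, adjusted p = 0.011) and Reg3g (at least 7.49-fold, adjusted p = 0.041), with 0 called under the replicate block. The alveolar surfactant gene Sftpc fell by 2.08 (adjusted p = 0.014), the 1 marker that fell in either sex, a call not made with the replicate block, with normexp or without slide 4.

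Hepatocyte, cartilage, thyroid, thymus, olfactory and cardiomyocyte lists had 0 genes called for meth against PBS in either sex with limma. However, 1 hepatocyte gene was called higher in males in 7 of 29 alternatives, among them the one without slide 4. In females 1 was called lower in 1 of 29. Albumin (Alb) was well above background on no male array. Its level in females was -2.98 after meth and -2.03 after PBS. The transthyretin gene Ttr was well above background on no array, and Ahsg, the hepatocyte gene with the largest male difference, had 0.78 (adjusted p = 0.056). The summed hepatocyte signal was 6.31 to 8.47 on male meth and 4.55 to 5.15 on male PBS arrays, without overlap, a much smaller gap than that of the secretory sum. The cardiomyocyte sum was 5328 to 6087 and 5465 to 6244 on the same groups, and Myh6 differed by 0.04. Of the other lists, the first gene and the gene with the largest male difference had log2 fold changes in males of 0.28 (Col2a1) and -0.37 (Acan) for cartilage and 0.21 (Tg) and -1.22 (Duoxa2) for thyroid. Dntt of the thymus list had 0.51, the olfactory Cnga2 -0.27 and Nppa, of the cardiomyocyte list, 0.40.

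The genes most like the members over the 15 arrays were ranked by their Pearson correlation with the mean profile of the 6 tested members. The 10 most alike, other than the members, were Ltf, Dynlrb2, Scgb3a1, Cdh1, Bpifa1, 1110017D15Rik, Reg3g, Tspan1, Cldn7 and Aqp5, with correlations between 0.95 and 0.99. Of these 10 genes, 9 stand on the airway or epithelial lists, 5 of them on the secretory list. That list holds 18 of the 14226 genes tested. The members were selected on these arrays and the lists written with earlier results known, so nothing is read from this overlap. The members' own correlations with the profile they make up were 0.99 for Cyp2a4 and Cyp2f2, 0.97 for Cyp2a5, 0.92 for Sult1d1, 0.89 for Cbr2 and 0.60 for Cyp2b10. Scgb3a1, another secretoglobin, was measurable on all arrays, as Cyp2f2 was, and went from -2.12 in male PBS to 3.58 in male meth hearts.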

How the data were processed

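Heart RNA of 15 mice was measured on 1-colour Agilent arrays. The authors scanned the arrays and extracted, per the file headers with Feature Extraction 10.5.1.1 (the labels give 9.1), a background-subtracted intensity per spot and flags for outliers and for a signal well above background. They also deposited a table of log2 values, which equals the log2 intensity plus a constant for each array.

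Control spots and outlier spots were left out, log2 signals were averaged per probe, and the 75th percentile of an array was subtracted. The tested probes (28367 of 41174) had a signal well above background on 3 or more arrays. On single arrays 61.4% to 71.4% of probes did. A probe bright in male meth hearts alone entered the test through that group. The number of arrays limits the precision. Accessions were matched to RefSeq symbols, which named 26918 probes, and a gene is given by its tested probe of highest mean signal. limma 3.58.1 in R 4.3.3 was used over all probes, with a term for each group and one for trial. Benjamini-Hochberg adjustment was made over all tested probes, and counts of genes use the 1 probe of each. P-values are two-sided and measure the spread between mice. The members and gene lists were chosen with earlier results of these data known.

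A probe dim in all arrays of a group has a lower bound. In the dim group each array's signal was raised, where lower, to the lowest one that was well above background there, and the bright group was set against the mean of these. Promoters come from RefSeq (GRCm38.p6), whereas the array design names mm9. Named genes were all 7 members, all tested regulators, up to 5 called genes of each enzyme list with the largest change, the first and most changed gene of each marker list, and the 10 most alike. One gene that this rule names is not reported here. Neither Epcam, Omp nor Ptcra, the first of their lists, could be tested.

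Same-numbered meth and PBS arrays deviated together from their group means over 23820 probes (r = 0.26 to 0.40 in males, 0.30 to 0.66 in females), and all of these pairs share a slide. Differently numbered arrays of males of 1 trial (0.30 to 0.37) and of females on slides 1 and 2 (0.54 and 0.63) correlated as much, and arrays of different male trials did so negatively. These correlations thus do not single out the number. The replicate number was tried as a block. Plots used matplotlib 3.10.9 in Python 3.11.15.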

Additional observations from a re-analysis of the deposited data

Results flagged for a closer look

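The male and female responses differed past the threshold of the limma interaction term for 12 of the genes named. Of the members, the male minus female log2 fold change was 7.90 for Cyp2a4, 8.99 for Cyp2a5 and 4.53 for Cyp2f2, a description, since the members were selected on these arrays. Of the marker genes it was 10.77 for Scgb1a1, 7.35 for Bpifa1, 3.37 for Foxj1, 4.60 for Aqp5, 5.18 for Krt15, 6.79 for Ltf, 3.96 for Dynlrb2, 4.57 for Scgb3a1 and 6.28 for Tspan1. With the replicate block none of the 12 passed. Only Cyp2f2 and Scgb3a1 were well above background on all male PBS arrays (Scgb1a1 on 2 of 4), so the other sizes are fitted values and not exact. No array stood apart in the Dixon test of the members in the groups of 4 arrays.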

How the results depend on the processing

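The counts of called probes over the whole array moved with the processing, as did some of the members' log2 fold changes. Main counts were 314 probes for male meth against PBS, 215 for female meth against PBS, 39 for the male minus female response and 131 for male against female PBS. In the same order they were 53, 27, 14 and 21 with normexp background, 43, 69, 9 and 61 with trial 1 arrays alone, 370, 49, 2 and 81 without slide 4 (an alternative chosen after seeing the data), and 177, 91, 38 and 58 with no filter. With the replicate block they were 157, 101 and 0, and 2458 probes had an unadjusted p under 0.05 for the last of these in the main analysis. The block could not be fitted for male against female PBS, since its pairs lie within a sex. With the slide as a block in place of the trial the male and female counts were 525 and 411, and with each sex alone 167 and 21. The methods' t-test after adjustment gave 0 paired and 18 unpaired in males and 0 in both forms in females, where unadjusted it gave 4310, 3766, 2818 and 2350. The female count was 132 with quantile normalization, 124 with a median shift and 61 with no trial term. The response difference gave 22 with a floor on low signals and 12 with the filter on all 15 arrays, and male against female PBS gave 237 with the trial from the source names. Leaving out each array in turn gave 119 (without male PBS trial 1 replicate 2) to 309 in males, 38 (without female PBS 2) to 205 in females, 28 to 49 for the difference and 42 (without male PBS trial 1 replicate 1) to 153 for the controls. Of the female calls 58 of 215 were higher in meth, and 73 of 124 with the median shift and 20 of 27 with normexp. For male against female PBS 53 of 131 were higher in males, and 94 of 139 with the median shift.

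No called value of a member turned its direction. Fitted male values of Cyp2a5 ranged from 5.63 to 10.58, Cyp2a4 from 4.79 to 9.1 and Cyp2f2 from 4.21 to 5.59, and all 3 stayed called in every alternative fitted with limma. Cbr2 ranged from 0.81 to 1.37 and lost its call in 16 of 31 alternatives, among them those without any 1 male PBS array, without male meth trial 2 replicate 2 or without female PBS 1. Sult1d1 ranged from 0.75 to 4.29 and lost it in 3 of 30, with normexp, with the floor (2.16) and in trial 2 alone (2.91). In females Cyp2b10 ranged from 0.59 to 1.60 and lost its call in 16 of 29, among them those without any 1 female array, or without male PBS trial 1 replicate 1 or either trial 2 male PBS array. The call for the Cyp2f2 response difference was lost without female PBS 2 (4.36) and with trial 1 arrays alone (5.10). Signal over background limits Sult1d1, Aldh3a1 and the Cyp2a4 and Cyp2a5 controls, for which a lower bound is all that the arrays give.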
